A study of Gallus gallus with 6 samples.

Results

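The genes described here encode the subunits of the 5 enzyme complexes of oxidative phosphorylation, together with the assembly and associated factors that share their names. They were chosen by a rule on names, set with earlier results of these data known. The rule took every probe set with a single gene symbol that began with NDUF, UQCR or ATP5, or with COX and a digit. It also took those of the 4 succinate dehydrogenase genes. This gave 146 of the 38439 probe sets tested, for 83 of the 13009 named genes. By complex they were 33 genes of complex I, 2 of complex II, 8 of complex III, 8 of complex IV, 13 of complex V and 19 assembly or associated factors. SDHA and SDHD stand for complex II, and SDHB and SDHC were not analysed here. The subunits encoded by mitochondrial DNA were not analysed here either, since none of 23 symbols listed for them was found among the named probe sets.

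RNA came from bursal cells of line 0 chickens 3 weeks old; the bursa of Fabricius is where B cells of birds mature. The cells were kept overnight at 37 °C, with 4% serum, on a monolayer of DF-1, an adherent line of chicken embryo fibroblasts. In the control group the monolayer carried the empty vector (Vector-DF1). In the SCA2 group it expressed a Flag-tagged stem cell antigen 2 (SCA2Flag-DF1), a small lipid-anchored membrane protein. The Flag-tagged SCA2 was thus expressed by the monolayer, and any SCA2 made by the bursal cells themselves was not examined. Per culture 2000000 bursal cells were plated and then washed off the monolayer. Each group had 3 Affymetrix chicken arrays. The labels call the replicates biological but do not say that each came from its own birds, nor whether the DF-1 lines were single clones, so the p-values refer to the spread among the arrays, which may be technical.

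Complex I (NADH dehydrogenase) and complex II (succinate dehydrogenase) pass electrons from metabolism to ubiquinone. Complex III (cytochrome bc1) passes them on to cytochrome c, and complex IV (cytochrome c oxidase) to oxygen. Complexes I, III and IV pump protons across the inner mitochondrial membrane, and complex V (ATP synthase) makes ATP from the returning flow. Most subunits are encoded in the nucleus, and dedicated factors insert hemes, copper and iron-sulfur clusters and join the modules. In lymphocytes, the demand on this system is known to change with activation and growth.

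On the SCA2 arrays 18 of 33 complex I genes and 4 of 8 complex III genes rose and 0 fell. Complex IV had 2 rises and 1 fall among 8 genes, complex V 2 rises among 13, and the assembly factors were split. The called shares of complexes IV and V were 37.5% and 15.4%, against 47.0% of all named genes. Each gene is represented by its probe set of highest mean intensity, and a gene is said to have risen or fallen only where limma gave a Benjamini-Hochberg adjusted p under 0.05 over all probe sets. By that test 34 of the 83 genes rose, 5 fell and 44 did not pass. The called share, 47.0%, was that of all named genes, also 47.0%, so the number of calls sets these genes apart in no way. Their directions were less even: 41.0% rose, against 26.2% of all genes, and 6.02% fell, against 20.8%. This lean was not particular to them. Of 67 mitochondrial ribosomal protein genes 28 rose and 5 fell, of 30 proteasome subunit genes 10 rose and 1 fell, and of 22 mitochondrial import genes 9 rose and 1 fell. Among the genes brighter than the median probe set, 80 of which were members, 42.5% of members rose against 33.9% of all such genes, 6.25% fell against 23.6%, and 48.8% were called against 57.5%. The changes were small. The median was 0.13 on the log2 scale, against -0.01 over all genes, and 1 of the 83 genes changed at least 2-fold, against 11.8% of all genes. The groups did not overlap for 68.7% of member genes and 61.3% of all genes.

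Counted by probe set, 47 of 146 rose (32.2%) and 14 fell (9.59%), a called share of 41.8%. Over all probe sets 35.3% were called, 18.2% higher and 17.1% lower. The groups did not overlap for 63.0% of member probe sets and 48.9% of all. A second quantile normalization left 23 genes that rose and 7 that fell, so that 76.7% of calls were upward in place of 87.2%. Over all genes the upward share of calls was 52.5% in place of 55.8%. This normalization lowered the median of the 83 genes to 0.065. Leaving out arrays cost calls as well: 22 genes passed without SCA2 1 and 25 without SCA2 3. With each of the 6 arrays left out in turn, 20 of the 39 calls held. The matching counts over all genes are not given here, so these losses cannot be called particular to the members.

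**Figure D1:**
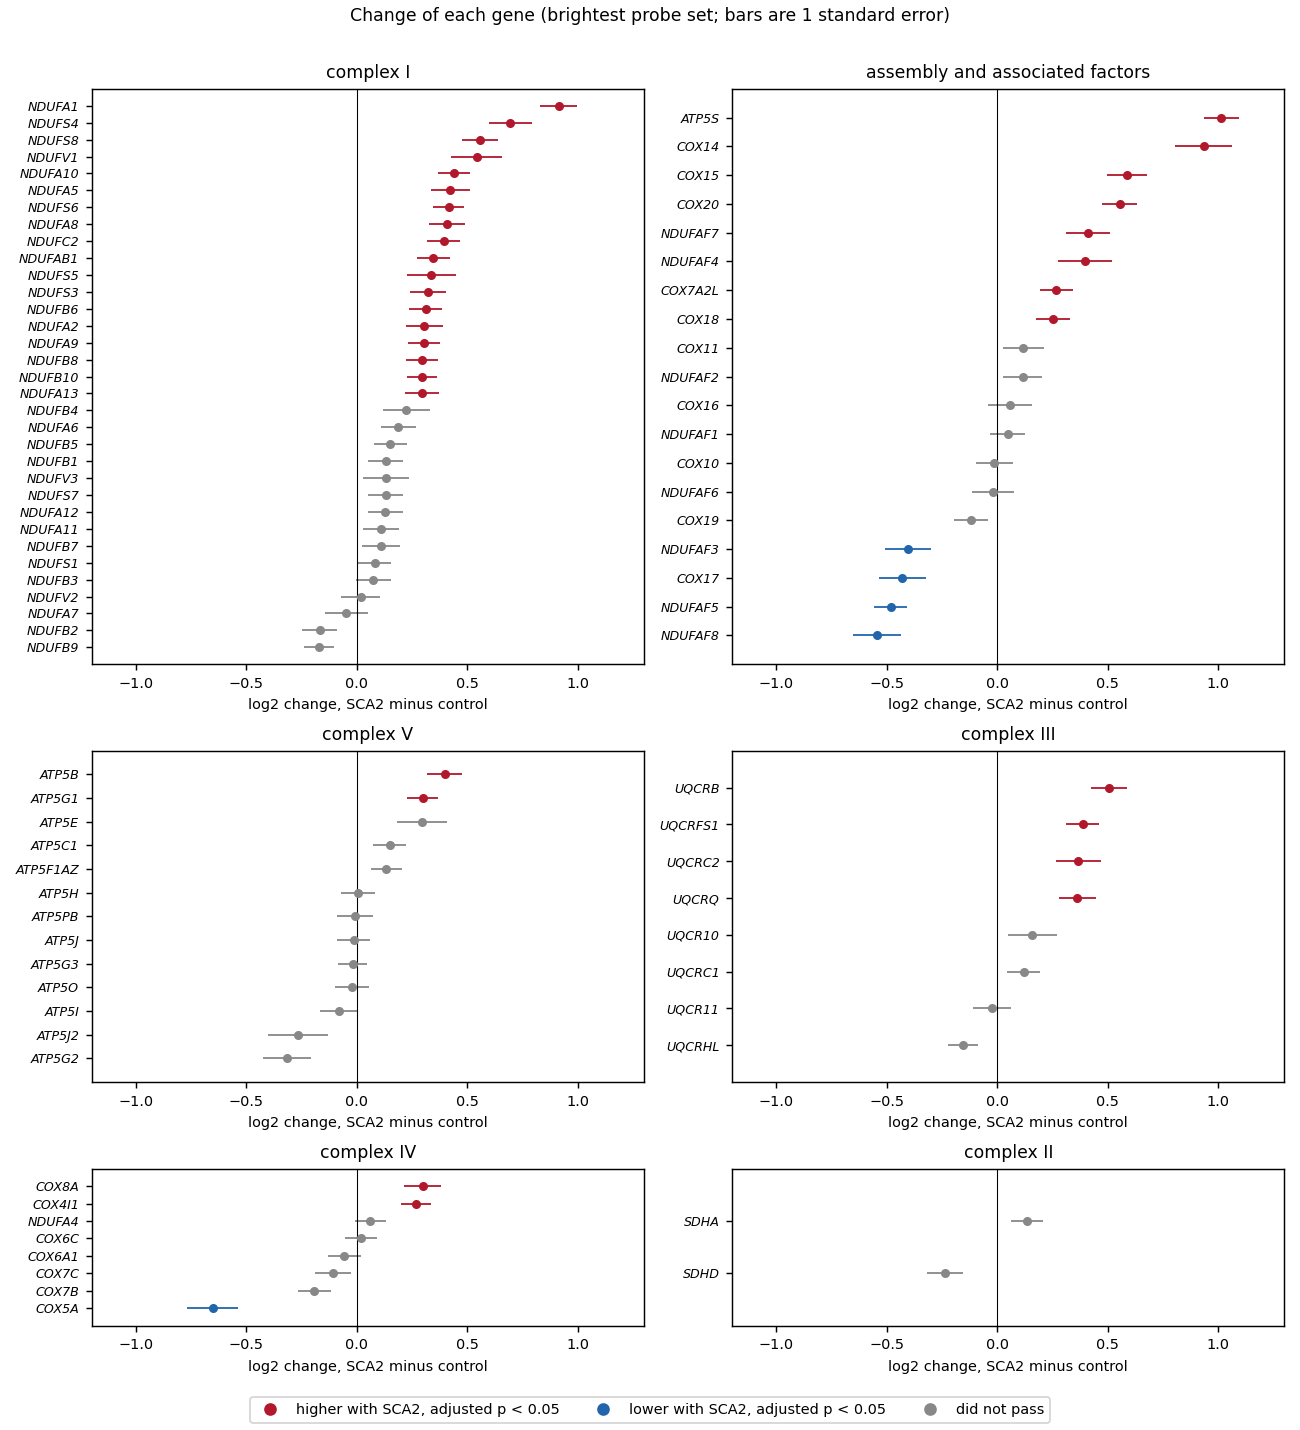
Log2 change (SCA2 minus control) of each of the 83 genes, grouped by complex, from the brightest probe set of a gene, with bars of 1 standard error. Red points passed upward, blue points downward and grey points did not pass. Complex I has 18 red and 0 blue points, and the factors have 8 red and 4 blue.

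Bulk arrays measure the harvest as a whole, in which fewer cells of a type and less RNA per cell cannot be told apart. Marker lists moved with the groups. Of 8 B cell markers measured 0 rose and 7 fell, and their summed intensity was 14920 to 15127 on the control arrays and 5306 to 6446 on the SCA2 arrays. T cell markers fell in 7 of 8 cases (sums of 6061 to 7206 and of 2429 to 2471), macrophage markers in 6 of 8 (9343 to 14431 and 2853 to 4619) and epithelial markers in 6 of 6 (8488 to 13684 and 2410 to 4852). Of 12 fibroblast markers 9 rose and 2 fell, with sums of 26962 to 27981 and of 43037 to 44083. None of the measured markers lay below the background mark, a log2 intensity of 4.92, on all arrays. CD79B, a chain of the B cell receptor, was bright in both groups, at 12.75 ± 0.04 and 11.39 ± 0.13 (log2 intensity, mean ± SD, n = 3 each), and so was the collagen gene COL1A1, at 12.29 ± 0.18 and 13.32 ± 0.05. The part of this shift in cell markers in the changes given below was not tested.

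Complex I, the complex with the most genes, also had the most calls. By the brightest probe set of each, 18 of its 33 genes rose (54.5%, against 26.2% of all genes) and 0 fell (against 20.8%). Its called share was thus 54.5%, against 47.0% of all genes and 57.5% of those brighter than the median probe set. Of those brighter genes 33.9% rose and 23.6% fell, and all 33 genes of complex I were among them. The median change of complex I was 0.29, or 0.23 after a second quantile normalization. Over all 60 of its probe sets 23 rose (38.3%, against 18.2% of all probe sets) and 5 fell (8.33%, against 17.1%). Those that fell were all dimmer probe sets of NDUFA7, NDUFA11, NDUFB3 and NDUFS6. NDUFA1, a small membrane-anchored subunit needed for assembly of the complex, had the largest change. Its log2 intensities were 10.73, 10.95 and 10.80 on control 1 to 3 and 11.78, 11.75 and 11.68 on SCA2 1 to 3. The lowest SCA2 array thus lay well above the highest control array, and the change was 0.91 (SE 0.09, 1.88-fold; adjusted p = 2.3e-04). NDUFS4, an accessory subunit that holds the NADH-oxidizing module in place, measured 7.40, 7.66 and 7.70 on the control arrays and 8.30, 8.32 and 8.23 on the SCA2 arrays. Control 1 was the lowest array and the groups were apart, with a change of 0.69 (SE 0.10; adjusted p = 0.00148).

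NDUFS8 carries iron-sulfur clusters in the arm that reduces ubiquinone. It measured 10.68, 10.72 and 10.72 on the control arrays and 11.27, 11.37 and 11.15 on the SCA2 arrays, a change of 0.56 (SE 0.08; adjusted p = 0.00172). Here the control arrays lay close together and the SCA2 arrays were spread, without overlap. NDUFA10, an accessory subunit of the membrane arm, rose by 0.44 (SE 0.07; adjusted p = 0.00308), from 11.17 ± 0.05 to 11.61 ± 0.05. NDUFV1 binds the flavin that takes electrons from NADH. Its values were 11.43, 11.12 and 11.39 and then 11.99, 11.71 and 11.88, so that replicate 2 was the lowest in both groups, and the change was 0.54 (SE 0.11; adjusted p = 0.00903). These 5 calls held with every array left out in turn.

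The other catalytic subunits varied. NDUFS1, which carries the most iron-sulfur clusters of any subunit, measured 11.21, 11.18 and 11.17 on the control arrays and 11.35, 11.23 and 11.22 on the SCA2 arrays. That difference of 0.08 did not pass (adjusted p = 0.44), but a dimmer probe set of NDUFS1 rose, from 8.37, 8.22 and 8.37 to 8.74, 8.54 and 8.65 (0.33, SE 0.09; adjusted p = 0.0233). NDUFV2, its neighbour in the NADH module, differed by 0.02 and NDUFS7, of the ubiquinone arm, by 0.13, and neither passed. By module, 4 of 10 genes of the NADH-oxidizing module rose (median 0.16), 3 of 4 of the ubiquinone module (median 0.37) and 11 of 19 of the membrane arm and other accessory subunits (median 0.29), with 0 that fell in each. Of all genes 26.2% rose and 20.8% fell, and of those brighter than the median probe set 33.9% rose and 23.6% fell. The modules are small, the ubiquinone module with 4 genes, and differences between them were not tested. NDUFAB1, the mitochondrial acyl carrier protein, which also serves fatty acid synthesis, rose by 0.35 (adjusted p = 0.0101). NDUFB9 (-0.17) and NDUFB2 (-0.17) had the lowest values in complex I and did not pass.

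Of the 18 calls of complex I, 10 held with each array left out in turn. Without SCA2 1 the adjusted p of NDUFA9 was 0.0644 and that of NDUFB10 0.0585. NDUFB8 lost its call without SCA2 1 (0.0641) or SCA2 2 (0.0518), and NDUFB6 without SCA2 2 (0.052) or SCA2 3 (0.0558). NDUFS3, NDUFA2, NDUFA13 and NDUFS5 lost theirs without any of 4 or 5 of the arrays, with adjusted p-values up to 0.0758, 0.074, 0.0684 and 0.146.

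**Figure D2:**
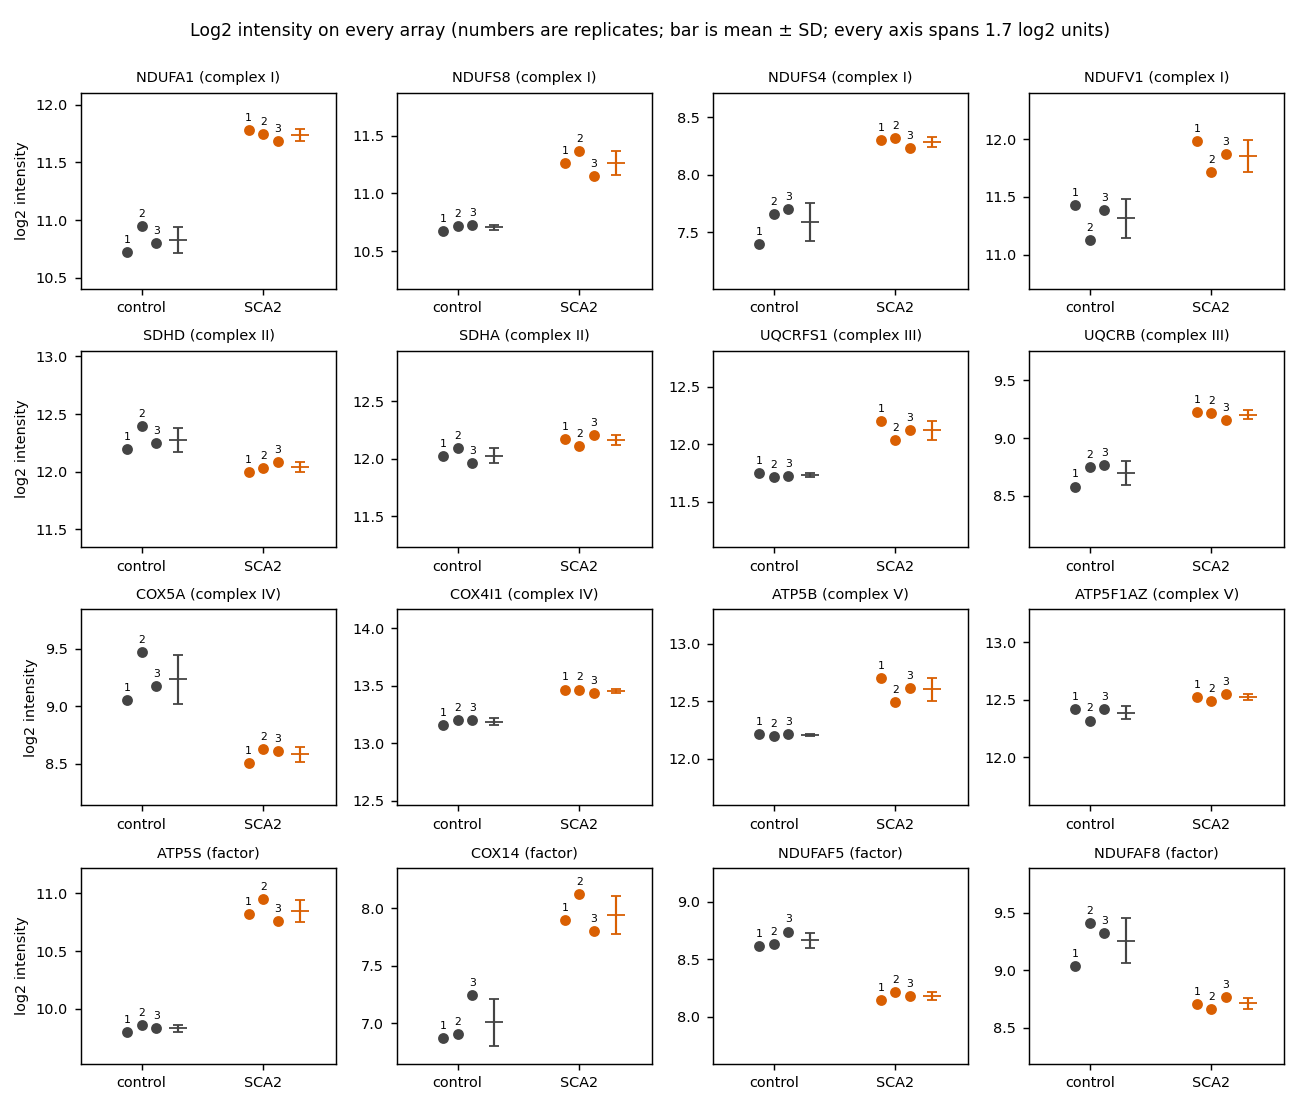
Log2 intensity of 16 genes on each of the 3 control (grey) and 3 SCA2 (orange) arrays, numbered by replicate, with the mean and SD of each group beside the points. Every vertical axis spans the same number of log2 units, so that the steps can be compared by eye: NDUFA1, ATP5S and COX14 show the widest gaps, and SDHA and ATP5F1AZ the narrowest.

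Complex II was represented by its flavoprotein and 1 of its membrane anchors. SDHA, the flavoprotein that oxidizes succinate, measured 12.02, 12.09 and 11.96 on the control arrays and 12.17, 12.11 and 12.20 on the SCA2 arrays, a difference of 0.13 that did not pass (adjusted p = 0.204). SDHD, the small anchor subunit that helps bind heme and ubiquinone, leaned the other way. Its brighter probe set measured 12.19, 12.39 and 12.25 on the control arrays and 12.04 ± 0.04 (mean ± SD, n = 3) on the SCA2 arrays, the highest of them 12.09, a difference of -0.24 (SE 0.08; adjusted p = 0.0599). The groups did not overlap, although the test was not passed. The dimmer probe set of SDHD, at 8.72, 8.84 and 9.05 and then 8.09, 8.45 and 8.07, was lower by 0.67 on the log2 scale and passed (-0.67, SE 0.13; adjusted p = 0.00727). The brighter one passed after a second quantile normalization (-0.31; adjusted p = 0.0233), among the brighter probe sets alone (adjusted p = 0.0315) and with a variance trend (adjusted p = 0.0108). Its adjusted p ran from 0.0108 to 0.172 among the alternatives.

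In complex III 4 of 8 genes rose (50.0%, against 26.2% of all genes) and 0 fell (against 20.8%). Its called share was thus 50.0%, against 47.0% of all genes and 57.5% of those brighter than the median probe set. Of those brighter genes 33.9% rose and 23.6% fell, and all 8 genes of complex III were among them. The median of complex III was 0.26, or 0.17 after a second quantile normalization. UQCRFS1, the Rieske iron-sulfur protein, measured 11.75, 11.72 and 11.73 on the control arrays and 12.20, 12.04 and 12.12 on the SCA2 arrays. The control arrays were nearly alike, and the change was 0.39 (SE 0.08; adjusted p = 0.00626). UQCRB, an accessory subunit near the ubiquinone site, measured 8.58, 8.75 and 8.77 and then 9.23, 9.22 and 9.16, without overlap, a change of 0.51 (SE 0.08; adjusted p = 0.00266). That probe set is the brightest of UQCRB by its SCA2 values. On the control arrays another was brighter, at 8.81, 9.17 and 9.01, and it did not pass, with 8.85, 8.91 and 8.85 on the SCA2 arrays (-0.12; adjusted p = 0.393). UQCRB was the 1 member gene for which the 2 choices differ. UQCRQ, another small accessory subunit, measured 11.34, 11.56 and 11.45 and then 11.86, 11.80 and 11.77, and changed by 0.36 (SE 0.08; adjusted p = 0.0133, and 0.0539 without SCA2 1).

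The core proteins of complex III, UQCRC1 and UQCRC2, scaffold the matrix side of the enzyme. UQCRC2 measured 11.84, 11.53 and 11.70 and then 12.15, 11.96 and 12.07, with replicate 2 the lowest in each group. It changed by 0.37 (SE 0.10; adjusted p = 0.0281), a call that was lost without control 2 (0.0681), control 3 (0.0683), SCA2 1 (0.0991) or SCA2 3 (0.0861) and after a second quantile normalization (0.0826). UQCRC1 measured 12.05, 11.96 and 12.09 and then 12.17, 12.13 and 12.15, a difference of 0.12 that did not pass (adjusted p = 0.25). UQCR11 (-0.02) and UQCRHL (-0.16), a gene of the hinge protein type, did not pass either.

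Complex IV had no common direction. Of its 8 genes 2 rose and 1 fell, a called share of 37.5%, against 47.0% of all genes. The median was -0.02, or 0.01 with each array centred on its median. COX5A, the subunit that can bind thyroid hormone in mammals, was the member that fell. It measured 9.06, 9.47 and 9.17 on the control arrays and 8.51, 8.62 and 8.61 on the SCA2 arrays, so that the lowest control array still lay above the highest SCA2 array. The change was -0.65 (SE 0.12; adjusted p = 0.00418), and a dimmer probe set of COX5A fell as well (-0.46, SE 0.10; adjusted p = 0.00866). The call held with every array left out in turn.

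COX4I1, the subunit through which ATP regulates the enzyme, measured 13.16, 13.21 and 13.21 and then 13.47, 13.47 and 13.44. The groups were tight and apart, by 0.27 (SE 0.07; adjusted p = 0.0193), yet the adjusted p was 0.0693, 0.0525 and 0.0614 without SCA2 1, 2 and 3. COX8A, a small hydrophobic subunit, measured 11.35, 11.57 and 11.54 and then 11.77, 11.82 and 11.76, and changed by 0.30 (SE 0.08; adjusted p = 0.0304). Its call was lost without control 1 (0.0646), control 3 (0.0542) or SCA2 1, 2 or 3 (0.0822, 0.082 and 0.0801) and after a second quantile normalization (0.0772). COX6A1 (-0.06), COX6C (0.02), COX7C (-0.11) and NDUFA4 (0.06), named for complex I and later placed in complex IV, did not pass. COX7B (-0.19) did not pass and was the only member gene whose brightest probe set lay below the background mark on average. COX7A2 shares its probe set with another gene and was left out, and the muscle and lung isoforms of complex IV subunits had no probe set among the members.

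In complex V 2 of 13 genes rose and 0 fell by the brightest probe set, a called share of 15.4%, against 47.0% of all genes. Over its 25 probe sets 5 rose (20.0%, against 18.2% of all probe sets) and 2 fell (8.0%, against 17.1%). The median over the genes of complex V was -0.01, or 0.03 after a second quantile normalization and 0.02 after centring. ATP5B, the catalytic beta subunit, measured 12.21, 12.19 and 12.21 on the control arrays and 12.70, 12.50 and 12.62 on the SCA2 arrays. Its control arrays differed by very little, and the change was 0.40 (SE 0.08; adjusted p = 0.00716). ATP5G1, a gene of the ring subunit c, measured 12.20, 12.17 and 12.19 and then 12.49, 12.53 and 12.44, and changed by 0.30 (SE 0.07; adjusted p = 0.0139, and 0.0511 without SCA2 1). The alpha subunit, read here as ATP5F1AZ, measured 12.42, 12.32 and 12.42 and then 12.53, 12.49 and 12.55, a difference of 0.13 (adjusted p = 0.194, and 0.0409 with a variance trend). Birds carry near-identical copies of this gene on the Z and W chromosomes, whose transcripts a probe set may not separate. Of the remaining genes of the stalk and membrane part none passed by the brightest probe set. ATP5G2, a dim gene of subunit c, measured 5.74, 5.42 and 5.58 and then 5.40, 5.20 and 5.19, without overlap (-0.32; adjusted p = 0.0597), and ATP5J2 differed by -0.27. ATP5G3, the other gene of subunit c, differed by -0.02, ATP5H by 0.01, ATP5O by -0.02 and ATP5PB by -0.01. By the brightest probe set, all 4 genes of the catalytic F1 part had a positive value (median 0.22). In the stalk and membrane part 7 of 9 had a negative one (median -0.02), several of them near 0. Dimmer probe sets of ATP5C1, a gene of the F1 part (-0.35, adjusted p = 0.025), and of ATP5O (-0.56, adjusted p = 0.0169) fell.

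Of the 19 assembly and associated factors 8 rose (42.1%, against 26.2% of all genes) and 4 fell (21.1%, against 20.8%). All 19 were brighter than the median probe set, and of all such genes 33.9% rose and 23.6% fell. The median of the 19 factors was 0.11, or 0.02 after a second quantile normalization. By the brightest probe set, the largest rise of all members was that of the factor ATP5S, and the largest fall that of COX5A in complex IV. ATP5S, coupling factor B, a small protein associated with ATP synthase, measured 9.80, 9.86 and 9.83 on the control arrays and 10.82, 10.95 and 10.76 on the SCA2 arrays. It changed by 1.02 (SE 0.08, 2.02-fold; adjusted p = 1.1e-04) and was the gene that passed 2-fold. COX14, which acts early in the assembly of complex IV around its subunit 1, measured 6.88, 6.91 and 7.24 and then 7.90, 8.12 and 7.80, a change of 0.93 (SE 0.13; adjusted p = 0.00141). COX20, a chaperone of subunit 2, measured 8.95, 8.998 and 8.88 and then 9.43, 9.59 and 9.47, a change of 0.55 (SE 0.08; adjusted p = 0.00158). None of these 3 factors overlapped between the groups. COX15, which completes heme A, changed by 0.59 (SE 0.09; adjusted p = 0.00221), from 9.78, 9.52 and 9.73 to 10.29, 10.29 and 10.21. COX10, which acts before COX15 in the same pathway, measured 8.42, 8.27 and 8.30 and then 8.38, 8.36 and 8.21, and did not pass (-0.01; adjusted p = 0.913).

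The 4 factors that fell were 3 of complex I and 1 of complex IV. NDUFAF5 modifies the subunit NDUFS7, and NDUFAF8 is known in human cells as its partner. NDUFAF5 measured 8.61, 8.63 and 8.74 and then 8.14, 8.21 and 8.18 (-0.48, SE 0.07; adjusted p = 0.0021). NDUFAF8 measured 9.04, 9.41 and 9.32 and then 8.71, 8.67 and 8.76 (-0.54, SE 0.11; adjusted p = 0.00712). Both were lower on each SCA2 array than on any control array, and both calls held with every array left out. COX17, the chaperone that brings copper to complex IV, measured 11.30, 11.67 and 11.38 and then 11.01, 10.99 and 11.05 (-0.43, SE 0.11; adjusted p = 0.0181). Its adjusted p was 0.0582, 0.0511 and 0.0528 without SCA2 1, 2 and 3.

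NDUFAF3 and NDUFAF4, singled out after their values were seen because their human proteins bind each other, went in opposite directions. NDUFAF3 measured 9.38, 9.75 and 9.53 and then 9.15, 9.12 and 9.18 (-0.41, SE 0.10; adjusted p = 0.0198). NDUFAF4 measured 9.05, 9.50 and 9.26 and then 9.60, 9.77 and 9.63 (0.40, SE 0.12; adjusted p = 0.0416). The groups were apart in each, but neither call held with every array left out. That of NDUFAF3 was lost without control 3 (0.0507) or SCA2 1, 2 or 3 (0.0611, 0.0559 and 0.0568), and that of NDUFAF4 without control 1 (0.0873), control 3 (0.0986) or SCA2 1, 2 or 3 (0.0819, 0.114 and 0.0932). The remaining factors that rose were NDUFAF7 (0.41), COX7A2L (0.27), which joins complexes into supercomplexes, and COX18 (0.25). Each of these 3 lost its call when some single arrays were left out, with adjusted p-values up to 0.0568, 0.086 and 0.129.

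**Figure D3:**
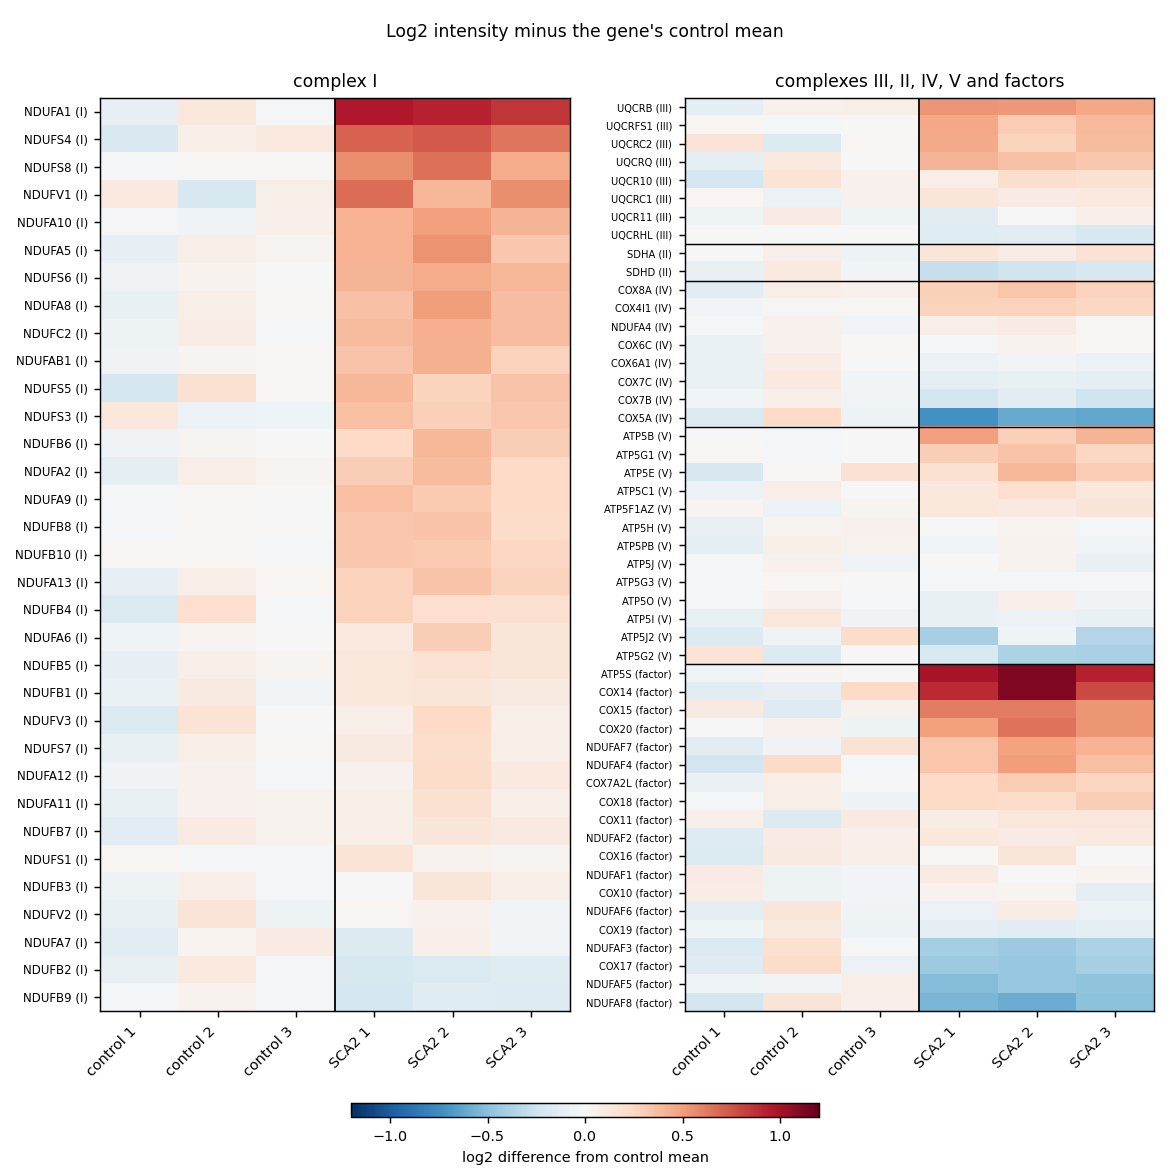
Log2 intensity of the 83 genes on each array minus the gene's own mean over the control arrays, with genes ordered by change within each complex and a vertical line between the 3 control and 3 SCA2 arrays. The upper parts of complexes I and III are red on the SCA2 arrays. The lower part of complex I and most of complexes IV and V are pale. The factors run from dark red (ATP5S, COX14) to blue (NDUFAF5, NDUFAF8).

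The members also varied within groups. In the control group 56 of the 83 genes (67.5%) were highest on control 2, against 37.0% of all genes, and 59 (71.1%) were lowest on control 1, against 37.5%. In the SCA2 group 51 (61.4%) were highest on SCA2 2, against 41.6% of all genes. The median of the 83 genes, relative to the control mean of each, was -0.07, 0.06 and 0.00 on control 1, 2 and 3 and 0.13, 0.20 and 0.13 on SCA2 1, 2 and 3. The control arrays were thus spread over nearly as much as the difference between the groups. For complex I the medians were -0.08, 0.07 and 0.00 and then 0.28, 0.30 and 0.24, and for complex III -0.03, 0.03 and 0.00 and then 0.28, 0.24 and 0.26, each with a gap between the groups wider than the spread within them. For complex IV they were -0.08, 0.08 and -0.02 and then -0.04, 0.01 and -0.03, and for complex V -0.02, 0.03 and 0.01 and then -0.01, 0.04 and -0.03, with overlap in both.

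**Figure D4:**
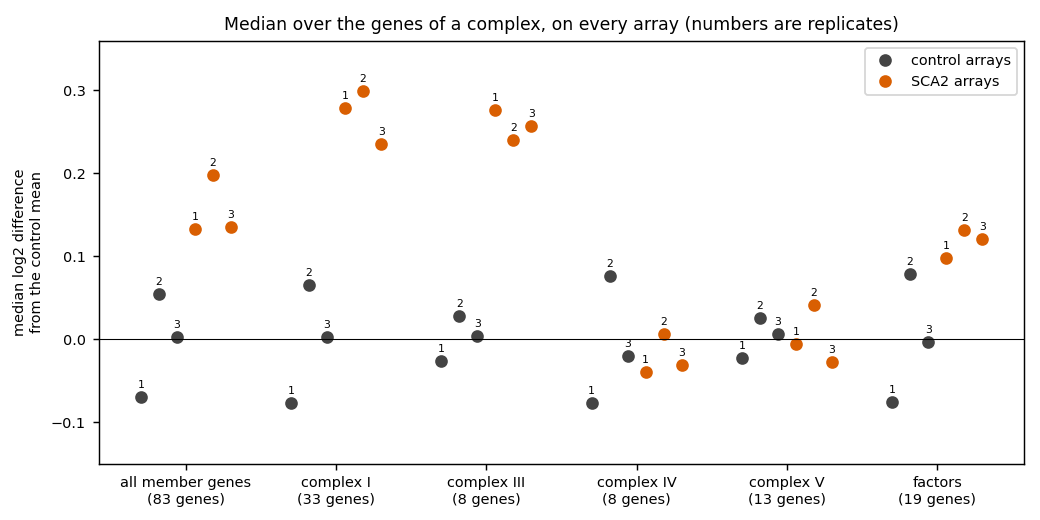
Median, over the genes of a complex, of the log2 difference from each gene's control mean, for each control (grey) and SCA2 (orange) array, numbered by replicate; complex II, with 2 genes, is left out. The SCA2 arrays stand above the control arrays for complexes I and III and overlap with them for complexes IV and V.

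Replicate 2 was the highest array of both groups for 40 of the 83 genes (48.2%, against 16.9% of all genes). It was the lowest of both groups for 8 genes (9.64%, against 16.7%): ATP5B, ATP5F1AZ, UQCRC1, UQCRC2, UQCRFS1, NDUFV1, NDUFS3 and NDUFAF1. These were listed after the pattern was seen. NDUFS7, NDUFV2 and ATP5C1 were among the 40 genes that were highest on replicate 2 in both groups. In the brighter probe set of UQCRC2 the gap was modest, but a dimmer one measured 8.54, 6.94 and 8.37 on the control arrays and 9.64, 8.78 and 9.42 on the SCA2 arrays. That probe set had the largest difference of all member probe sets, 1.33, with an error to match (SE 0.43; adjusted p = 0.0471). A dimmer probe set of UQCRC1 had the same shape, at 8.54, 7.42 and 8.77 and then 9.10, 8.77 and 8.96 (0.70, SE 0.32; adjusted p = 0.139), and did not pass.

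Probe sets of the same gene did not always move together. Of the 83 genes 38 had more than 1 probe set, and 1 of these, NDUFS6, was called in both directions. The bright probe sets of NDUFS6, an accessory subunit of the NADH module, changed by 0.42 (SE 0.07; adjusted p = 0.00312) and 0.40 (SE 0.09; adjusted p = 0.01). A dim one changed by -0.43 (SE 0.12; adjusted p = 0.0304), from 5.60, 5.49 and 5.20 to 4.87, 5.09 and 5.05. Elsewhere a call came from a dim probe set where the brightest did not pass. NDUFB3 fell in dim probe sets (-0.86 and -0.37) and differed by 0.08 and 0.12 in the bright ones. NDUFA12 rose by 0.83 in a dim probe set and differed by 0.13 in the brightest. COX6A1 rose by 0.42 in the dim and differed by -0.06 in the bright. NDUFA11 and NDUFA7 fell in dim probe sets (-0.51, adjusted p = 0.00562, and -0.47, adjusted p = 0.0295) and differed by 0.11 and -0.05 in the brightest. ATP5J2, a small subunit of the membrane part of ATP synthase, rose in 3 of 5 probe sets, while the brightest, which stands for it here, differed by -0.27 and did not pass. Changes were 0.51 and 0.40 in a pair of these 3, and in the other the control values of 4.32, 4.74 and 4.51 lay under the background mark, against 5.27, 5.38 and 5.51 on the SCA2 arrays.

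By level, 10 of 19 member probe sets with a mean log2 intensity from 9 to 11 rose and 1 fell, and 20 of 53 at 11 and above rose and 1 fell. From 6 to 9 the counts were 13 and 8 of 40, and below 6 they were 4 and 4 of 34. The share of falls was 5.26% from 9 to 11 and 1.89% at 11 and above, against 25.9% and 21.2% of all probe sets at those levels. From 6 to 9 it was 20.0%, against 23.8%, and below 6 it was 11.8%, against 11.1%. The share of rises was 52.6% from 9 to 11, against 37.2%, 37.7% at 11 and above, against 33.9%, and 32.5% from 6 to 9, against 29.3%. Below 6 the share of rises was 11.8%, against 6.52%. Changes were smaller than those of all probe sets at 11 and above, with a median size of 0.16 against 0.28. The same held from 9 to 11 (0.30 against 0.40) and from 6 to 9 (0.34 against 0.40). Below 6 they were larger (0.19 against 0.15).

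**Figure D5:**
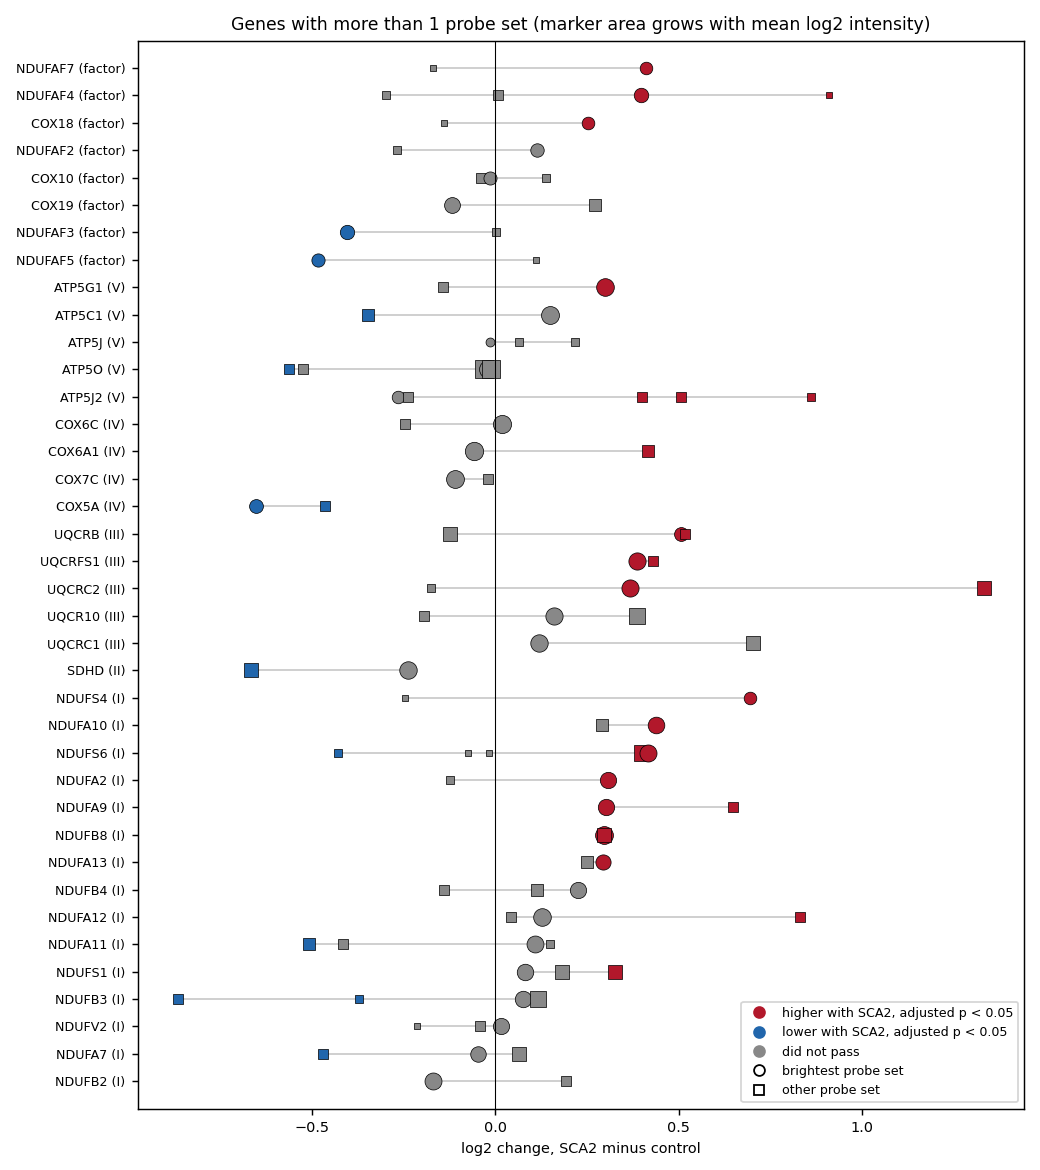
Log2 change (SCA2 minus control) of each probe set of the 38 genes with more than 1 probe set, with circles for the brightest probe set, squares for the others, and an area that grows with the mean log2 intensity. Colours are red for a rise and blue for a fall that passed, grey otherwise. NDUFS6 has both colours, and in NDUFB3 the large grey markers lie near 0 while the small blue ones lie to the left.

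Other genes of mitochondrial energy metabolism were counted from lists, to be read against the 26.2% of all genes that rose and the 20.8% that fell. Of 27 further assembly factors 12 rose and 4 fell (median 0.21). The complex IV factors CMC1 (1.32, SE 0.08; adjusted p = 5.3e-05), CMC2 (1.10, SE 0.08; adjusted p = 1.1e-04) and COA3 (0.81, SE 0.08; adjusted p = 2.7e-04) had the smallest p. COA3, whose human protein acts with COX14, went from 10.64 ± 0.08 to 11.45 ± 0.06. The largest change among these 27 factors was a fall, that of the complex II factor SDHAF3 (-1.67, SE 0.17, adjusted p = 3.6e-04). Of 19 electron carriers and related inner membrane proteins 11 rose and 1 fell (median 0.35). GPD2, which feeds electrons from glycerol phosphate to ubiquinone, changed by 1.47 (SE 0.08), SLC25A4, which exchanges ADP for ATP, by 1.25 (SE 0.09), and COQ10B, a ubiquinone-binding protein, by 0.80 (SE 0.09). SLC25A6, another such exchanger, was brighter than SLC25A4, at 13.58 ± 0.07 and then 13.47 ± 0.03, and did not pass (-0.12, adjusted p = 0.269). CYCS, cytochrome c itself, chosen after its value was seen, went from 11.99 ± 0.01 to 12.34 ± 0.03.

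In the tricarboxylic acid cycle list, which includes pyruvate dehydrogenase, 6 of 16 genes rose and 0 fell (median 0.23), with FH (0.37), DLST (0.31) and PDHX (0.42) first by p. In glycolysis 5 of 19 rose and 2 fell (median 0.13), with the glucose transporter gene SLC2A1 (0.73), PFKP (0.78) and HK1 (0.46) first by p. The called shares of these lists, 37.5% for the cycle and 36.8% for glycolysis, lay below the 47.0% of all genes. In the list of mitochondrial protein import 9 of 22 rose and 1 fell (median 0.15), with TIMM8A (0.94), TIMM21 (0.89) and TOMM70 (0.58). Among regulators of mitochondrial genes 4 of 16 rose and 2 fell (median -0.07), a called share of 37.5%. TFB2M, a factor of mitochondrial transcription, changed by 0.58 and MTERF3 by 0.75. PPARGC1A, the coactivator PGC-1 alpha, measured 5.65, 6.60 and 6.04 on the control arrays and 4.65, 4.86 and 4.90 on the SCA2 arrays, the latter under the background mark of 4.92 (-1.29, SE 0.22; adjusted p = 0.00372). Of the 67 mitochondrial ribosomal protein genes 28 rose and 5 fell (median 0.20), and of 30 proteasome subunit genes 10 rose and 1 fell (median 0.21). The differences between these lists and the complexes were not tested.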

How the data were processed

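The authors deposited 1 intensity per probe set and array, made with RMA per the submitters' processing notes; no version or setting of it is given in the sources used here. The intensities, on a linear scale from 4.28 to 20715, were turned to log2. As usually run, RMA brings the arrays to a like distribution of intensities, so that a change is relative to the other genes. Of 38535 probe sets 96 controls were left out. Symbols came from the platform annotation (27168 probe sets with 1 symbol, 177 with several, 11094 with none). Updating them by gene identifier changed 0 member symbols.

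A model with 1 term for the group was fitted over the 6 arrays with limma 3.58.1 in R 4.3.3 (lmFit, eBayes), adjusting p-values by Benjamini-Hochberg over 38439 probe sets. Changes are SCA2 minus control. No filter was set on dim probe sets, so all 146 member probe sets were tested. The background mark is the percentile 95 of the mean log2 intensity of 689 probe sets whose identifiers are sequence accessions with a coding-sequence number instead of chicken transcript clusters. Figures used matplotlib 3.10.9. The fit was run on simulated data in which 200 probe sets were moved by 1 or 2 log2 units. At these sizes 81% and 100% of them were called, against 0.029% of the unmoved probe sets. Smaller changes, the size of nearly all member changes, were not simulated, so the run does not bear on them.

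Members and lists were chosen with earlier results of these data known. Named were, for each complex, up to 4 called genes of smallest p and up to 3 against the majority, a set of reference subunits, genes called in both directions, and up to 3 called genes of each list outside the rule; any further gene was picked with its values in view. The number of arrays limits precision, and the lowest exact permutation p that 3 against 3 allows is 0.1. No batch is given in the labels, so batch and group cannot be told apart. Alternatives were a replicate block, a second quantile normalization, centring, a filter on dim probe sets, a variance trend with a robust fit, an adjusted p of 0.01, the mean over a gene's probe sets and leaving out each array. No sequences or genome positions were used here.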

Additional observations from a re-analysis of the deposited data

How the results depend on the processing

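Of the 83 genes, 39 passed (34 higher, 5 lower), and of the 146 probe sets, 61 passed (47 higher, 14 lower). Leaving out each array in turn gave 22 to 39 genes (19 to 33 higher, 3 to 6 lower), 37 to 58 probe sets (28 to 45 higher, 7 to 14 lower) and a median change of 0.114 to 0.185. The lowest counts came without an SCA2 array (22, 26 and 25 genes without SCA2 1, 2 and 3, against 32, 39 and 30 without control 1, 2 and 3), and the cause was not tested. At an adjusted p of 0.01, 19 genes (16 higher, 3 lower) and 29 probe sets (22 higher, 7 lower) passed. Counts over all genes are not given here for the arrays left out or for this threshold, so these member counts have no share beside them. The number of lower genes was 8 with a variance trend and robust fit and 10 with the mean over all probe sets of a gene, which brings in the dim probe sets. The median of 0.13 was 0.065 after a second quantile normalization; the cause was not tested. With the replicate number as a block, 39 genes passed, 37 of them shared with the fit without it, and 63 probe sets. The numbers were not treated as pairs: deviations of same-numbered arrays correlated at 0.413, 0.121 and 0.043 over all probe sets. Control 1, SCA2 1 and SCA2 2 correlated best with their own number, and control 2, control 3 and SCA2 3 with another. Centring, the filter on dim probe sets and updated symbols left the counts of genes between 39 and 41. A tally was made over the member genes named by the stated rule, without the adjusted p of 0.01 and the mean over all probe sets. In it 289 values kept their call or lack of one, 19 lost a call and 4 gained one, and 0 reversed. The kept values include those with updated symbols, which changed 0 member symbols and so could not change a call. Many of the tallied genes were named for a small p in these data, so the tally does not measure the stability of all members. Members picked with their values in view were left out of the tally, such as NDUFA13, NDUFA2, NDUFS5 and NDUFAF4, whose calls were often lost. Of all 39 called genes, 20 kept their call with each array left out in turn.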
